A study of Mus musculus with 7 samples.

Results

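Chromatin accessibility at 6 genes that encode regulators of resting T cells, Tcf7, Lef1, Satb1, Bach2, Id3 and Tox, was compared between wild-type and Opa1-deficient regulatory T cells (Treg cells). A peak of open chromatin was counted as a member when it overlapped 1 of the 6 genes, or lay within 100 kb of it with no protein-coding gene nearer. This rule took 161 of the 50213 peaks in the count table, 12 for Tcf7, 26 for Lef1, 26 for Satb1, 49 for Bach2, 6 for Id3 and 42 for Tox. The assay was ATAC-seq, in which a transposase inserts sequencing adapters into open DNA. Mixed bone marrow chimeras were made from CD45.1+ marrow and CD45.2+ marrow of the genotype studied at 1:1. Spleen cells that carried CD45.2, CD4 and Foxp3-YFP and lacked CD45.1 were then sorted. The CD45.2+ marrow was Foxp3Cre in the 4 WT libraries and Foxp3CreOpa1fl/fl in the 3 Opa1 KO libraries. Both genotypes therefore carried the Cre, which acts in cells that express Foxp3, and both shared their host with CD45.1+ cells. Opa1 is a GTPase of the inner mitochondrial membrane. The age of the mice is not stated in the sources used here.

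Most of the 6 genes are known for keeping T cells in a resting or early state. Tcf7 encodes TCF-1 and Lef1 encodes LEF-1, related factors with an HMG box that bind the same DNA sequence, recruit beta-catenin or Groucho (TLE) corepressors, and maintain naive and memory-like T cells. Satb1 encodes an organizer of chromatin loops that is needed in thymic T cell and Treg development. Bach2 encodes a repressor that occupies AP-1-like sites and restrains effector programs, also in Treg cells. Id3 encodes an inhibitor that binds E proteins and keeps them off DNA, and Tox encodes an HMG-box factor of CD4 T cell development in the thymus and of exhausted T cells.

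Libraries held 1534394 to 3384325 counts in peaks, KO replicate 1 the most, with a median of 14 to 30 per peak. Values are CPM, counts per 1e+06 of a library's effective size. That size is the TMM-scaled total over tested peaks for a peak, and over tested gene sums for a gene sum, where a peak that touches several genes counts for each. The CPM of a gene sum is therefore lower than the added CPM of its peaks. Libraries of a group were compared by chi-square on halved counts, since most counts were even. Between WT replicates 2 and 3 the halved counts at 36418 peaks did not differ beyond sampling noise (chi-square p = 0.11). Chi-square per degree of freedom was 1.01 there and 1.02 to 1.09 for the other WT pairs (p of at most 0.0014). Tests used all 7 libraries. For each mean ± SD, the mean of WT replicates 2 and 3 was counted as 1 sample, so n = 3 for both genotypes. With the 2 summed into 1 library, no member peak or member gene sum was called either, and the smallest adjusted p of a member peak was 0.187. The peak over an end of Opa1 itself (chromosome 16, 29579139 to 29579524) had 36.8, 33.8, 37.3 and 37.9 CPM in WT replicates 1 to 4 and 33.3, 29.1 and 42.6 in KO replicates 1 to 3. Which exons the Cre removes is not stated in the sources used here, and the peak checks no genotype label. Peaks that touched a gene were found at 7 of 8 Treg and CD4 T cell markers (Foxp3, Il2ra, Ctla4, Ikzf2, Cd4, Cd3e and Cd5; none touched Tnfrsf18). Their summed level was 904 to 971 CPM in WT and 947 to 962 CPM in KO. Most of it came from Ikzf2 (390 CPM on average), Il2ra (203) and Ctla4 (188), each with several peaks. Foxp3 had 80.5, Cd5 39.2, Cd4 30.4 and Cd3e 14.6, against 20.1 at the CD8 gene Cd8b1 and 19.0 at Ebf1. The sums below cover fewer genes and peaks, so their size does not measure purity. No peak was found at the B cell genes Cd79a, Cd79b and Ms4a1, nor at the myeloid genes Csf1r and Lyz2 or the NK cell gene Ncr1. The summed level of the B cell genes Pax5 and Ebf1 was 29.1 to 34.4 CPM in WT and 24.8 to 34.1 in KO. It was 20.5 to 29.8 in WT and 25.0 to 36.1 in KO for the 2 CD8 T cell genes. For the 5 myeloid genes it was 11.6 to 14.5 and 9.24 to 11.9, for the 2 NK cell genes 1.20 to 4.84 and 1.26 to 4.31, and for the 3 erythroid genes 14.5 to 27.1 and 18.9 to 29.1. The part of other cells in the values that follow was not tested.

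Promoter sequences were taken for the 5 member genes listed in the RefSeq promoter table (GRCm38.p6, the assembly that mm10 names), which holds windows from 250 bases before to 50 after a transcript start. Of 13 such windows, 6 were touched by a deposited peak. The window most covered by a peak is shown for each of the 4 genes concerned, read 5′ to 3′ on the gene's strand. They lie at chr11:52282546-52282845 (Tcf7, minus strand), chr3:131112541-131112840 (Lef1, plus strand), chr17:51832598-51832897 (Satb1, minus strand) and chr4:136143572-136143871 (Id3, plus strand). Capitals mark matches on either strand to 5 motifs, and overlapping matches run together. The motifs were CTTTGA of TCF/LEF factors, TGANTCA of Bach and AP-1 factors, CANNTG (the E box of E proteins), CGGAAG of ETS factors and the GC box GGGCGG.
Tcf7: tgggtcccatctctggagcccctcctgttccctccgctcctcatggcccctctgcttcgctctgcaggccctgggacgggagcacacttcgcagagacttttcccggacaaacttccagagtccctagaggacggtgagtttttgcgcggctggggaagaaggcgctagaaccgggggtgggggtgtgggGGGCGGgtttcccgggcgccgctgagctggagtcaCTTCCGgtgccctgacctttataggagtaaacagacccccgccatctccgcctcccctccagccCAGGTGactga
Lef1: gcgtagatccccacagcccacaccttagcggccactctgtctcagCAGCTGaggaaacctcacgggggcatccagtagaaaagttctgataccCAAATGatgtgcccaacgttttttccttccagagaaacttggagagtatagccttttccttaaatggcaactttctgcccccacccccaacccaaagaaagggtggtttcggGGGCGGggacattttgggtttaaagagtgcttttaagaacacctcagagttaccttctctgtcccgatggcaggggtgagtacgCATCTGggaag
Satb1: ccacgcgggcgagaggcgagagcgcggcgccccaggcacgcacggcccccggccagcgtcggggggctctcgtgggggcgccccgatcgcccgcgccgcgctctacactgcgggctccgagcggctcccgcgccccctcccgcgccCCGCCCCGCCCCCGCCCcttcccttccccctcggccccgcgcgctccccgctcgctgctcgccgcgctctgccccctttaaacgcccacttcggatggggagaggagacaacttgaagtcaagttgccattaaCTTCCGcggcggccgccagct
Id3: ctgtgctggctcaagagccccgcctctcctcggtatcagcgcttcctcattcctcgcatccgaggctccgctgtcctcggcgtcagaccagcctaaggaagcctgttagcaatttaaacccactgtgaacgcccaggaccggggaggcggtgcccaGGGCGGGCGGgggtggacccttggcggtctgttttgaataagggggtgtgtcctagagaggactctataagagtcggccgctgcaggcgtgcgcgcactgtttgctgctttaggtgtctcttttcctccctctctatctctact
None of these 4 windows held CTTTGA or TGANTCA, which occur in 16.003% and 7.81% of all 32851 windows. Among the windows not shown, a Lef1 window (131156044 to 131156343) held 2 CTTTGA matches and the Bach2 window (32417185 to 32417484) held 1. Neither of these was touched by a peak. Of the 4 shown, the Satb1 and Id3 windows held 3 and 2 GC boxes and the Tcf7 and Lef1 windows 1 each, against 35.7% of all windows with at least 1. The Lef1 window held 3 E boxes, the Tcf7 window 1, and the Satb1 and Id3 windows none, a motif found in 72.3% of all windows. The Tcf7 and Satb1 windows each held 1 ETS match, as 16.9% of all windows did. Counting deposited starts from 1, the peak covered all 300 bases at Satb1, 266 at Id3, 187 at Tcf7 and 99 at Lef1. The peak on the Tcf7 window (52282497 to 52282732) was weak, with 5.81, 8.80, 2.41 and 4.74 CPM in WT and 4.93, 2.53 and 6.47 in KO. The means were 5.39 ± 0.568 and 4.64 ± 1.99 CPM (SD, n = 3 each). Averaging WT replicates 2 and 3, here the highest and lowest WT values, narrows that WT SD. Neither Lef1 window at the annotated 5′ end of the gene (starts at 131110297 and 131110323) was touched by a peak. The remaining windows touched by a peak were also at Satb1 and differed from the Satb1 window shown. That at the annotated gene start (51833241 to 51833540) held 1 E box and no GC box. That at 51826539 to 51826838 held 5 E boxes and no GC box.

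In GRCm38, Tcf7 (gene ID 21414) lies on chromosome 11 from 52246527 to 52283383, Lef1 (16842) on chromosome 3 from 131110297 to 131224357 and Satb1 (20230) on chromosome 17 from 51736187 to 51833290. On chromosome 4 lie Bach2 (12014) from 32238413 to 32586109, Id3 (15903) from 136143822 to 136145392 and Tox (252838) from 6686353 to 6991557. The 6 loci differed in how their open sites were laid out. Bach2 had more peaks than all but 2 of the 14279 genes with a peak, and Tox ranked 7, where the median gene had 2. At Bach2 the strongest peak held 7.46% of the summed count of the gene and the top 3 peaks 21.0%. At Tox the top 3 held 28.1%, at Satb1 37.3% and at Lef1 45.5%. At Tcf7 and Id3 the top 3 held 55.1% and 74.9%. Such a share is larger where a gene has fewer peaks, even if counts are spread evenly. With 6 peaks at Id3 and 12 at Tcf7 against 49 at Bach2, these shares do not rank the genes by concentration. Peaks that touched the gene held 86.9% of the counts at Tox, 74.0% at Bach2, 66.3% at Lef1 and 53.9% at Satb1. Only 40.4% lay within Tcf7 and 28.0% within the short Id3 gene, the rest outside.

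**Figure D1:**
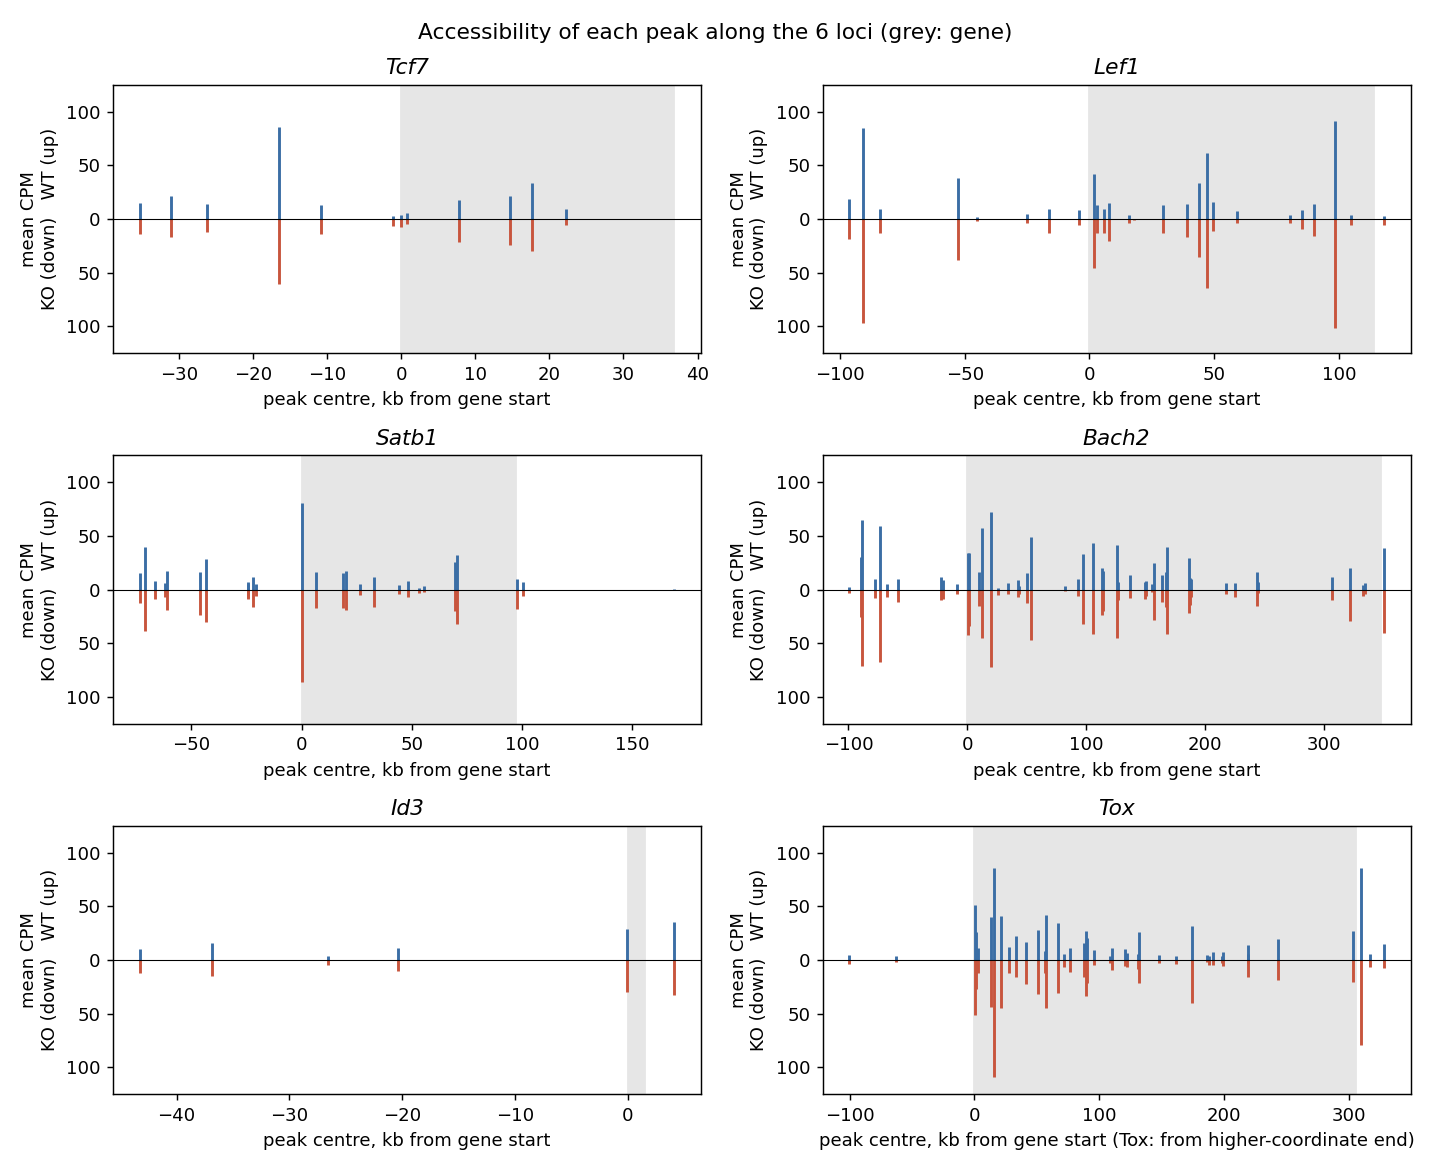
Mean CPM of each of the 161 member peaks against its distance from the gene start in kb, WT upwards (blue) and KO downwards (red), with the gene in grey; for Tox, whose strand is not given in the tables used, distance is from the end at the higher coordinate. The strongest Tcf7 peak, 16216 bp outside the gene, is lower in KO (60.1 CPM) than in WT (85.5), and the strongest Tox peak is higher (108 against 85.3), both without passing the test; the strongest Bach2 peak is level (72.2 against 71.9).

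The gene start was a strong site at some of these genes and a weak one at Tcf7. The peak over the Satb1 start (chromosome 17, 51832471 to 51833432) was the strongest of that gene, with 19.9% of its counts. The peak over the Id3 start (chromosome 4, 136143606 to 136143938) held 28.0%. The peak over the higher-coordinate end of Tox (chromosome 4, 6991107 to 6991589) held 6.38%, and a Bach2 peak 61 bp inside the gene start (chromosome 4, 32238474 to 32238869) held 3.84%. The peak over the Tcf7 start (chromosome 11, 52283280 to 52283556) held 2.19% and was higher than 5.55% of all tested peaks. The corresponding figure was 94.3% for the Satb1 start peak, 87.4% for Tox, 80.6% for Bach2 and 74.8% for Id3. The peak nearest to the Lef1 start lay 1661 bp inside the gene (chromosome 3, 131111958 to 131112639) and held 7.88%.

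Per kb of peak, Lef1 was the most accessible of the 6 genes and Id3 the least. The median over the 7 libraries was 59.2 CPM per kb at Lef1 (56.2 to 65.7), 54.6 at Tcf7 (45.7 to 62.9) and 53.3 at Tox (50.7 to 59.1). It was 51.2 at Bach2 (49.6 to 53.3), 48.6 at Satb1 (43.4 to 55.8) and 45.3 at Id3 (36.3 to 46.1). The ranges of all neighbours in this order overlapped, while those of Lef1 and Id3 did not. Over all peaks the median was 57.2 CPM per kb (56.6 to 57.9). These values add the CPM of single peaks.

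The comparison of KO with WT asked whether loss of Opa1 in Treg cells altered accessible chromatin at these genes. At a threshold of 0.05 on the adjusted p (edgeR, quasi-likelihood test), no member peak was called. Of the 161 members, 139 passed the filter on low counts, and the 22 that did not had at most 4.69 CPM on average. Of all 38041 tested peaks 0.0867% were called, 0.0473% as higher and 0.0394% as lower in KO. The smallest adjusted p of a member peak was 0.251. An unadjusted p under 0.05 was reached by 9 member peaks, 6.47% of those tested, against 9.47% of all tested peaks. The median log2 fold change of KO against WT was 0.015 over the members and -0.0010 over all peaks, with 71 members above 0 and 68 below. The groups did not overlap at 12 member peaks, 8.63%, against 9.36% of all peaks. At 8 of these every KO library was below every WT library (5.76%, against 4.51% of all peaks) and at 4 above (2.88%, against 4.85%). The shares of members are thus near the background.

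**Figure D2:**
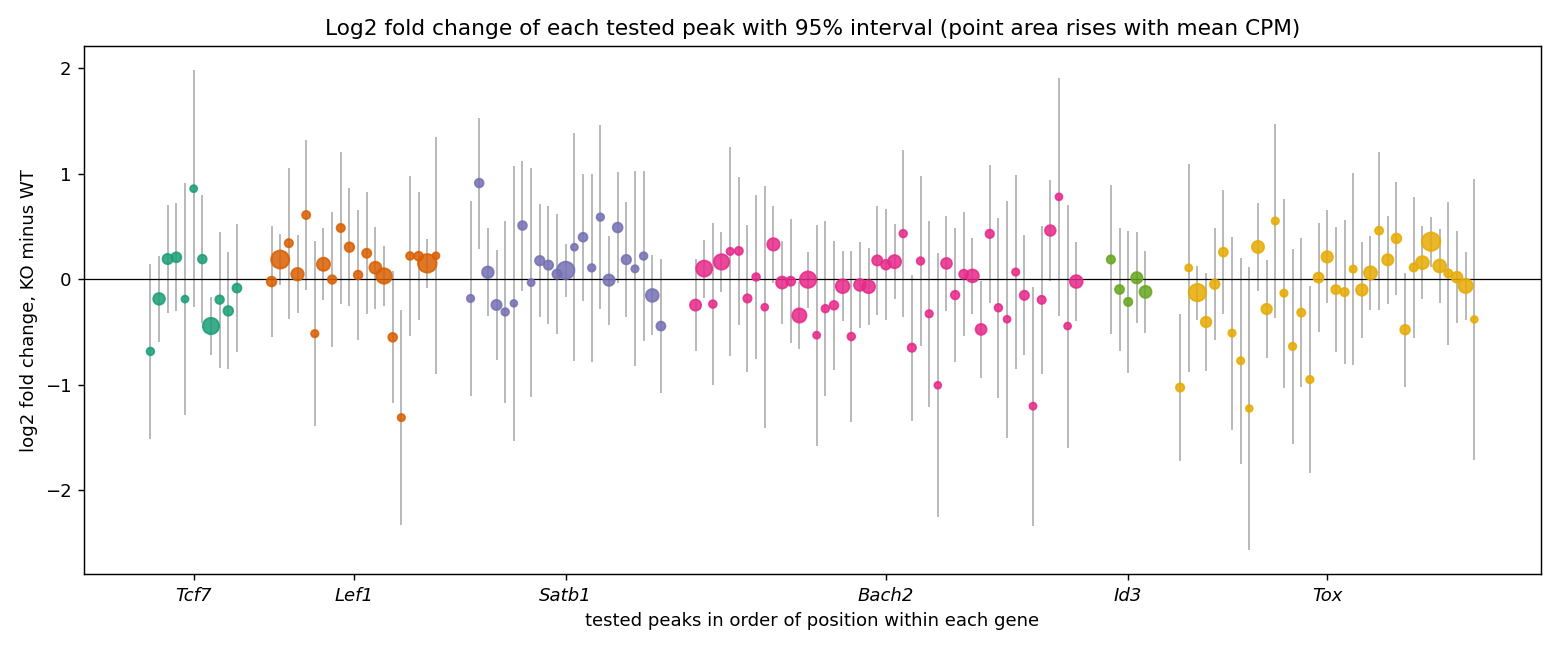
Log2 fold change of KO against WT for each of the 139 tested peaks, in order of position within each gene, with the 95% interval as a grey line and a point area that rises with mean CPM. Values run from -1.31 to 0.91; the large points, peaks of high CPM, lie between -0.44 and 0.36.

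How large a change these data leave room for depended on the count. At 87 of the 139 tested members (62.6%, against 60.5% of all tested peaks) the 95% interval of the log2 fold change stayed within -1 and 1, that is, within a 2-fold change either way. In 12 member peaks the mean was above 50 CPM. Their log2 fold changes lay between -0.44 and 0.36, and at 9 of them the interval excluded a change of 1.5-fold in either direction. The interval covers the error of the fit alone. A sorted sample is a bulk sample, so fewer cells with an open site and less opening per cell cannot be told apart.

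Summed over all peaks of a gene, none of the 6 differed between genotypes at an adjusted p of 0.05, where 0.346% of 13288 gene sums were called. None reached an unadjusted p under 0.05 either, as 11.4% of all gene sums did. The groups overlapped at each of the 6, and did not at 9.6% of all gene sums. At each of the 6 the interval excluded a change of 1.5-fold in either direction.

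**Figure D3:**
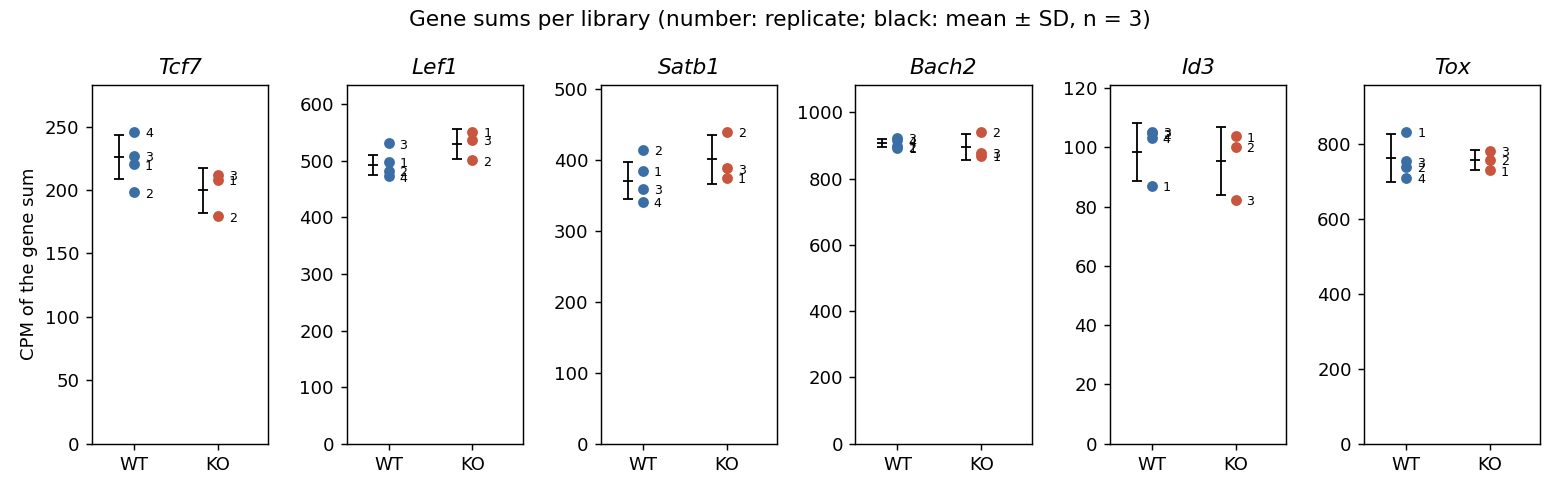
CPM of the gene sum, the counts of all peaks of a gene added, 1 point per library with its replicate number, for 4 WT (blue) and 3 KO (red) libraries; black bars are mean ± SD with WT replicates 2 and 3 averaged (n = 3). The WT and KO points overlap for every gene, from Id3 at 82.3 to 105 CPM up to Bach2 at 870 to 942.

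Among the HMG-box factors, the Tcf7 sum was 220, 198, 227 and 246 CPM in WT replicates 1 to 4 and 208, 179 and 212 in KO replicates 1 to 3. KO replicate 2 was below every WT library, and the other KO libraries lay within the WT range. The log2 fold change was -0.15 (SE 0.083, 95% interval -0.32 to 0.0090, adjusted p = 0.482), and -0.02 when only the peaks that touch the gene were summed. The Lef1 sum had the opposite sign, with 498, 483, 531 and 473 CPM in WT and 552, 501 and 537 in KO. For Lef1 the log2 fold change was 0.10 (SE 0.063, interval -0.03 to 0.22, adjusted p = 0.59). KO replicates 1 and 3 were above all WT libraries, and KO replicate 2 was within their range.

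The Satb1 sum was 385, 414, 360 and 341 CPM in WT and 375, 440 and 388 in KO, and KO replicate 1 lay within the WT range. Its log2 fold change was 0.09 (SE 0.068, interval -0.04 to 0.23, adjusted p = 0.659). At Bach2 the libraries were closest to each other, at 893, 897, 923 and 916 CPM in WT and 870, 942 and 879 in KO, with KO replicates 1 and 3 below and KO replicate 2 above all WT libraries. The log2 fold change was -0.02 (SE 0.056, interval -0.13 to 0.09, adjusted p = 0.954). At Id3 the values were 87.1, 105, 105 and 103 CPM in WT and 104, 100.3 and 82.3 in KO (-0.06, SE 0.12, interval -0.29 to 0.17, adjusted p = 0.927). WT replicate 1 and KO replicate 3 were the low libraries there, 1 of each genotype. The Tox sum was 834, 740, 755 and 711 CPM in WT and 731, 758 and 784 in KO (-0.0066, SE 0.058, interval -0.12 to 0.11, adjusted p = 0.99), all KO libraries within the WT range.

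At Tcf7, the strongest peak had the smallest p of all member peaks, without passing the threshold. It lay upstream, 16216 bp outside the gene (chromosome 11, 52299599 to 52300073). WT replicates 1 to 4 had 85.7, 71.8, 68.6 and 100.6 CPM and KO replicates 1 to 3 had 63.5, 61.9 and 55.0. Every KO library was below every WT library, with the highest KO and the lowest WT value 63.5 and 68.6 CPM. WT averaged 85.5 ± 15.2 CPM and KO 60.1 ± 4.51 (SD, n = 3 each). Between them the log2 fold change was -0.44 (SE 0.14, interval -0.72 to -0.17, adjusted p = 0.251). The share of the Tcf7 counts in this peak was 36.3%, 33.3%, 28.3% and 37.8% in WT and 28.1%, 32.0% and 23.8% in KO, so that the groups overlapped on that scale.

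**Figure D4:**
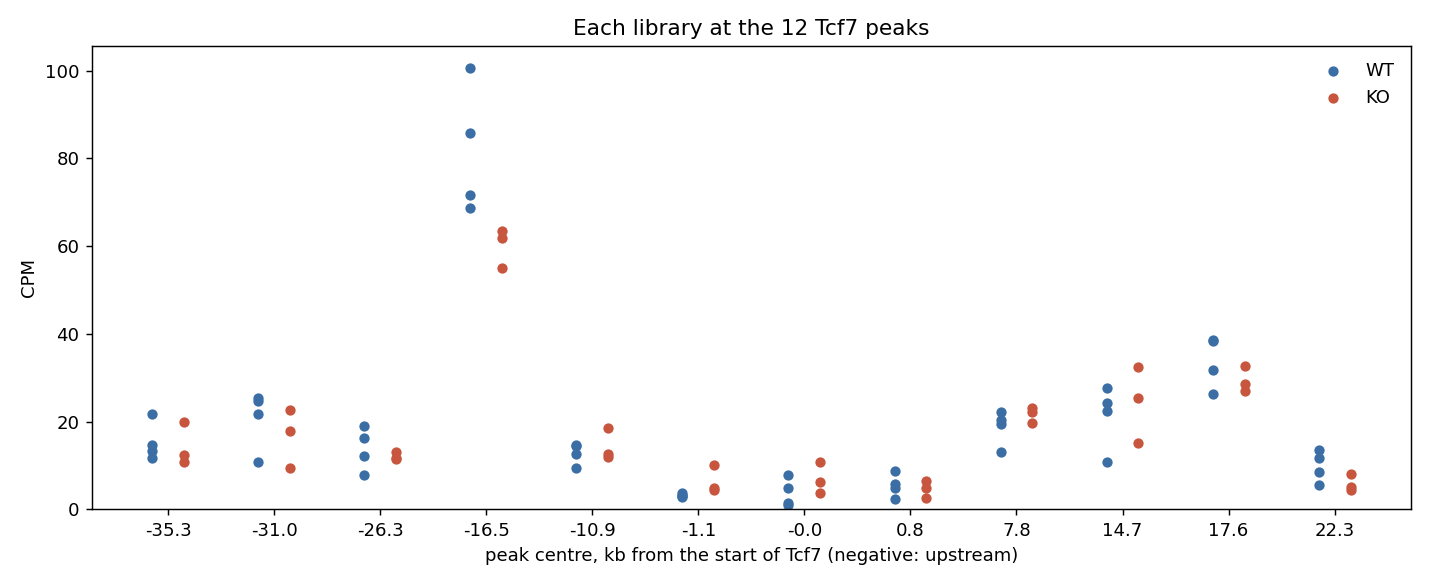
CPM of each library at the 12 Tcf7 peaks, ordered by the distance of the peak centre from the gene start in kb, WT in blue and KO in red. The groups are apart at the peak centred 16.5 kb upstream, where WT libraries have 68.6 to 100.6 CPM and KO libraries 55.0 to 63.5, and at the low peak 1.08 kb upstream, which had too few counts to be tested.

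The other Tcf7 sites did not share a direction. Of the 11 tested peaks 4 were above 0 and 7 below. Outside the gene, 4 of 5 tested peaks were below 0 (median log2 fold change -0.19), and within it 3 of 6 (median 0.0021). At the start peak the WT libraries had 0.969, 1.35, 4.82 and 7.90 CPM and the KO libraries 6.16, 3.79 and 10.8. The log2 fold change was 0.86 with an interval from -0.27 to 1.98 (adjusted p = 0.663). The peak 977 bp upstream of the gene, not tested for its low counts, had 2.91, 2.71, 3.61 and 3.16 CPM in WT and 4.93, 10.1 and 4.31 in KO.

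At Lef1, 15 of 20 tested peaks were above 0, and the median log2 fold change was 0.15. The strongest peak lay within the gene (chromosome 3, 131208476 to 131208948), with 93.0, 86.6, 107 and 84.3 CPM in WT and 112, 91.0 and 102 in KO. These groups overlapped (log2 fold change 0.15, SE 0.12, interval -0.08 to 0.38, adjusted p = 0.744). Another strong site, 90328 bp upstream of the gene (131019138 to 131019969), had 92.0, 82.6, 92.7 and 75.9 CPM in WT and 104, 86.6 and 100.3 in KO, again with overlap. Its log2 fold change was 0.19 (interval -0.05 to 0.43), and that of the next strongest, within the gene (131157352 to 131157838), was 0.03 (-0.25 to 0.31). All 3 are above 50 CPM. The smallest p was at a weak peak within the gene (131169309 to 131169588). Its libraries had 7.27, 9.48, 13.2 and 4.74 CPM in WT and 2.46, 5.06 and 3.24 in KO, and KO replicate 2 was above WT replicate 4. The log2 fold change was -1.31 (SE 0.51, adjusted p = 0.367), the lowest among the member peaks. Groups did not overlap at 1 of the 20 Lef1 peaks, against 9.36% of all peaks. It lay within the gene (131159610 to 131159830), with 15.7 ± 0.509 CPM in WT and 10.97 ± 3.63 in KO (adjusted p = 0.595).

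At Satb1, 15 of 23 tested peaks were above 0 (median log2 fold change 0.10). The peak over the gene start had 85.3, 97.5, 68.6 and 72.7 CPM in WT and 81.3, 84.7 and 91.7 in KO. Its log2 fold change was 0.08 (SE 0.13, interval -0.17 to 0.34, adjusted p = 0.893), and the WT libraries spread over the whole KO range. The smallest p was at a peak 231 bp beyond the other end of the gene (chromosome 17, 51735548 to 51735956). There WT had 10.7, 11.5, 7.23 and 8.96 CPM and KO had 16.02, 22.8 and 16.2, every KO library above every WT library. The means were 9.66 ± 0.887 and 18.3 ± 3.84 CPM (SD, n = 3 each), and the log2 fold change was 0.91 (SE 0.31, interval 0.29 to 1.53, adjusted p = 0.293). Averaging WT replicates 2 and 3, here the highest and lowest WT values, narrows that WT SD. It was the highest log2 fold change among the member peaks.

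At Bach2, 18 of 45 tested peaks were above 0 and 27 below (median log2 fold change -0.05). The strongest peak (chromosome 4, 32257879 to 32258629, within the gene) had 70.2, 85.3, 67.4 and 69.0 CPM in WT and 74.9, 69.5 and 72.3 in KO. Its log2 fold change was -0.0048 (SE 0.13, interval -0.27 to 0.26, adjusted p = 0.995). The smallest p was at a peak of 1056 bp (32250345 to 32251401), also within the gene, with 62.5, 60.9, 50.6 and 53.7 CPM in WT and 40.1, 48.0 and 48.0 in KO. Every KO library was below every WT library (log2 fold change -0.34, SE 0.16, interval -0.66 to -0.03, adjusted p = 0.482). The peak 61 bp inside the gene start went the other way, at 33.9, 27.8, 36.7 and 36.4 CPM in WT and 43.8, 45.5 and 38.3 in KO (0.33, SE 0.18, adjusted p = 0.583). A peak 185918 bp into the gene (32424331 to 32424811) had 28.1, 30.5, 39.1 and 24.2 CPM in WT and 18.5, 27.8 and 20.5 in KO, with KO replicate 2 inside the WT range (-0.48, SE 0.23, adjusted p = 0.503). The strong sites upstream of the gene were level or a little above 0. At 88818 bp (32149177 to 32149595) the log2 fold change was 0.10 (interval -0.17 to 0.38), and at 73143 bp (32163956 to 32165270) 0.16 (interval -0.12 to 0.45). Of the 45 tested Bach2 peaks, 5 (11.1%) had groups that did not overlap, near the 9.36% of all peaks, 3 lower and 2 higher in KO.

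At Id3, no tested peak had an unadjusted p under 0.05. The start peak had 20.3, 37.9, 25.3 and 35.8 CPM in WT and 32.4, 27.8 and 28.6 in KO (log2 fold change 0.01, SE 0.22, interval -0.42 to 0.44, adjusted p = 0.993). WT replicates 1 and 3 were below and WT replicates 2 and 4 above all KO libraries. The strongest peak lay 2346 bp beyond the gene (chromosome 4, 136147738 to 136148151). Its log2 fold change was -0.12 (SE 0.19, interval -0.51 to 0.26, adjusted p = 0.9). The smallest p of the gene was at a peak 20073 bp upstream (136123114 to 136123749, log2 fold change -0.22, SE 0.34, adjusted p = 0.897).

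At Tox, 17 of 35 tested peaks were above 0 and 18 below. The strongest peak, which also had the smallest p of the gene, lay within it (chromosome 4, 6975729 to 6976183). WT libraries had 93.5, 75.1, 89.7 and 80.1 CPM and KO libraries 106.6, 94.8 and 124. Every KO library was above every WT library, the nearest values being 93.5 CPM in WT replicate 1 and 94.8 in KO replicate 2. The means were 85.3 ± 7.16 and 108 ± 14.7 CPM (SD, n = 3 each; log2 fold change 0.36, SE 0.12, interval 0.12 to 0.59, adjusted p = 0.284). The next strongest site lay 4001 bp outside the lower-coordinate end (6681936 to 6682352), at 94.5, 74.5, 97.6 and 77.5 CPM in WT and 71.8, 74.6 and 91.7 in KO. There the log2 fold change was -0.13 (interval -0.38 to 0.13), with overlapping groups. The peak over the higher-coordinate end of the gene had a log2 fold change of -0.06 (SE 0.16, interval -0.38 to 0.26, adjusted p = 0.943). A peak 22286 bp outside the other end (6663593 to 6664067), chosen after its values were seen, had 18.4, 10.8, 16.9 and 12.6 CPM in WT and 6.78, 6.32 and 8.63 in KO. The log2 fold change there was -1.03 (SE 0.35, interval -1.73 to -0.33, adjusted p = 0.288). A peak within the gene (6895997 to 6896266) had 11.1, 8.12, 7.23 and 9.48 CPM in WT and 5.55, 2.53 and 5.39 in KO, again with every KO library below WT (-0.95, SE 0.44, adjusted p = 0.483). Among the 35 tested Tox peaks, 4 (11.4%) had no overlap between groups, near the 9.36% of all peaks, 3 lower and 1 higher in KO.

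Of 511 tested peaks in 5 lists of genes that act with the 6 or are likewise known from resting T cells, 1 was called (0.196%, against 0.0867% of all peaks). A single call is near the background. None of 91 tested peaks at the TCF/LEF partners was called, with 45 above 0 and a median log2 fold change of -0.0092. The smallest p was at a peak 97164 bp from Tle4, a Groucho-type corepressor (chromosome 19, 14695347 to 14695775), with 25.8 ± 4.59 CPM in WT and 16.4 ± 1.16 in KO (-0.71 on the log2 scale, adjusted p = 0.313). The gene sum with the smallest p in this list was that of Ctnnb1, which encodes beta-catenin, at 34.6 ± 2.94 and 25.0 ± 5.97 CPM (-0.49, SE 0.21, adjusted p = 0.322). Of 32 tested peaks at Id1, Id2, the E protein genes and Tal1 none was called (median 0.01). The smallest p there was within Tcf3, which encodes the E protein E2A (chromosome 10, 80433520 to 80434338, log2 fold change 0.28, adjusted p = 0.509).

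Among 31 tested peaks of Bach1, its Maf partners and related genes, the called one lay on chromosome 16, 41371 bp from Bach1, the close relative of Bach2 (87657356 to 87657583). WT libraries had 8.72, 10.8, 9.03 and 6.32 CPM, KO replicates 1 and 2 had 1.23 and 1.26, and KO replicate 3 had none. The fitted log2 fold change was -3.21 (SE 0.70, adjusted p = 0.017). Opa1, the deleted gene, lies on the same chromosome 16 (its peak at 29579139 to 29579524), as does the Runx1 peak given below. A part of linkage to Opa1 in these values was not tested. The list had 12 peaks above 0 and 19 below, with a median of -0.07. None of 14 tested peaks at the Tox and Satb relatives was called (median 0.14), with the smallest p in Cux1, a homeodomain factor with CUT domains like those of Satb1. That Cux1 peak (chromosome 5, 136459929 to 136460313) had 18.4, 13.5, 31.3 and 25.3 CPM in WT and 34.5, 35.4 and 35.6 in KO. The means were 22.04 ± 3.46 and 35.2 ± 0.578 CPM (0.66 on the log2 scale, adjusted p = 0.288). Averaging WT replicates 2 and 3, here the lowest and highest WT values, narrows that WT SD. Of 343 tested peaks at 29 other genes of resting T cells, among them Ccr7, Il7r, Klf2 and Foxo1, none was called, 178 were above 0 and the median was 0.01. The smallest p in that list lay within Runx1, a factor of T cell identity (chromosome 16, 92644708 to 92645072). WT had 4.84, 6.77, 18.1 and 13.7 CPM and KO had 18.5, 20.9 and 31.3, with WT replicate 3 the closest (log2 fold change 1.11, SE 0.31, adjusted p = 0.167). The gene sum with the smallest p was that of Izumo1r, which encodes folate receptor 4, a surface protein of Treg cells, at 188 ± 6.14 CPM in WT and 220 ± 8.21 in KO (0.24, SE 0.083, adjusted p = 0.198).

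Likeness over the 7 libraries was measured by Pearson's r of the log2 CPM of gene sums, among 6657 genes with a mean sum of at least 100 counts. The 3 genes most like Tcf7 were Mmgt2 (r = 0.96), Edrf1 (0.95) and Lman2 (0.95). For Lef1 they were Ppp1r10 (0.98), Ppp2r5a (0.98) and Ezr (0.97), and for Satb1 Tex30 (0.98), Golt1b (0.97) and Recql (0.97), of which the last 2 share their peaks. For Bach2 they were Meak7 (0.97), Fgfbp1 (0.95) and Depdc1a (0.93). For Id3 they were Nenf (0.95), Znrf1 (0.94) and Yeats4 (0.94), and for Tox Nceh1 (0.97), Sos1 (0.97) and Hfm1 (0.96). The points share library depth and counting noise, and the highest of 6657 values over 7 points is high whatever the genes, so these names are a description only. None of the 6 genes was among the 3 most like another of them.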

How the data were processed

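Raw, whole-number counts of 7 libraries at 50213 peaks (median width 319 bp) are what the authors deposited. Per the submitters' processing notes, bedtools 2.25.0, MACS2 2.1.1, SAMtools 1.9, Picard 2.9.4, BWA 0.7.16 and Trimmomatic 0.36 were used with the mm10 build. Settings, peak merging and any transposase shift, which would displace edges by some bases, are not stated in the sources used here. Whether deposited starts count from 0 or 1 is not stated, and positions are as in the table. Between 78.0% and 86.3% of the peaks in a library had an even count, zeros included, as when both mates of a pair are counted. Counts therefore overstate fragments, and the chi-square comparison of libraries used halved counts.

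Peaks were assigned to each protein-coding gene of the RefSeq GRCm38.p6 table that they touched (32474 peaks), or else to the nearest within 100 kb (14995 peaks). The nearest gene need not be the one a site regulates. edgeR 4.0.16 in R 4.3.3 (quasi-likelihood, robust, filterByExpr with a minimum count of 10 and total of 15, TMM) was fitted to the 7 libraries with a single term, genotype. Benjamini-Hochberg adjustment ran over the 38041 peaks or 13288 gene sums tested. Alternatives used other scalings and filters, DESeq2 1.42.0, limma 3.58.1 (voom), a replicate block, halved and thinned counts, and libraries left out. Intervals are at 95%. On simulated peak counts for KO against WT, 8.96% of the peaks with a 1.5-fold change were called, 44.8% at 2-fold and 81.8% at 4-fold, with 3 false calls among 93 over 35957 peaks. On simulated gene sums, 56.7%, 79.1% and 97.0% were called, with 7 false calls among 162 over 13133 genes. The simulated libraries were drawn independently, WT replicates 2 and 3 included, and without the excess of even counts. The rates in the real data may therefore differ. Tables and plots used Python 3.11.15, pandas 2.3.3, NumPy 2.4.6, SciPy 1.17.1 and matplotlib 3.10.9.

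Members and lists were chosen with earlier results of these data known, so no list was tested. For each member gene the text names the strongest tested peak, the one with the smallest p, any called peak and any over the gene start, and for each list its called peaks and smallest p. The windows of the promoter table added strands for 5 of the 6 genes; Tox has none there. Further sites with over 50 CPM, an unadjusted p under 0.05 or groups that did not overlap were named after their values were seen. The promoter windows and the layout of counts along the loci were added after the data had been seen.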

Additional observations from a re-analysis of the deposited data

Results flagged for a closer look

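In a group of 4 libraries, a value far from the other 3 was looked for at the 6 gene sums and the 13 named peaks, where chance flags about 1 in 20 groups. At the Id3 gene sum, WT replicate 1 had 87.11 CPM and the other WT libraries 103 to 105; KO replicate 3 was as low, at 82.3. At the strongest Bach2 peak, WT replicate 2 had 85.29 CPM and the other WT libraries 67.4 to 70.2.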

How the results depend on the processing

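No member peak was called in any of the 18 alternatives that refitted peaks. These tested from 79 members (thinned counts) to 161 (no filter). The smallest adjusted p of a member peak ranged from 0.107 (counts halved, 96 members tested) to 0.498 (without KO replicate 3). The 6 gene sums were not called in any alternative. With WT replicates 2 and 3 summed, 42 of all peaks and 59 of all gene sums were called. Among all peaks, where 33 were called, a minimum mean count of 20 gave 60 calls, limma-voom 55 and halved counts 77. Leaving out 1 library gave 15 to 43, namely 15 and 16 when KO replicate 1 or 3 was left out and 18 for WT replicate 1. Among all gene sums, where 46 were called, DESeq2 gave 15, halved counts 73 and thinned counts 24. Leaving out 1 library gave 8 to 67, namely 8 and 12 when KO replicate 3 or 1 was left out, 27 for WT replicate 1 or 4 and 28 for WT replicate 3. With the replicate block, 13 peaks and 23 gene sums were called. Same-numbered libraries did not deviate together (r = 0.011, -0.012 and 0.0037 for numbers 1 to 3), and r ranged from -0.038 to 0.029 for pairs of different number. Sampling noise in single peaks weakens such an r, so this check could miss a pairing. The labels give no pairing, and the numbers are not taken to pair the samples.

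The Tcf7, Lef1 and Satb1 sums kept their sign in all 20 alternatives. The Tcf7 log2 fold change ranged from -0.20 to -0.09 with a library left out, and was -0.02 when only touching peaks were summed. The ranges with a library left out were 0.07 to 0.14 at Lef1, 0.03 to 0.14 at Satb1, -0.053 to 0.0038 at Bach2, -0.13 to 0.035 at Id3 and -0.040 to 0.040 at Tox. The sign turned without KO replicate 1 at Bach2, without KO replicate 3 at Id3, and without WT replicate 1 or KO replicate 1 at Tox. Tox was also above 0 with touching peaks alone (0.012). Of the 13 named peaks, 4 changed sign in some alternative. The strongest Lef1 peak was at -0.015 with thinned counts. The strongest Bach2 peak was at 0.012 with no filter, 0.014 with limma-voom, 0.044 with thinned counts, 0.0086 with WT replicates 2 and 3 summed, and -0.040 to 0.064 with a library left out. The Id3 start peak was at -0.014 with total counts only, -0.017 with loess offsets, -0.015 with a minimum mean count of 20, -0.042 with thinned counts, and -0.15 to 0.13 with a library left out. The Tox end peak ranged from -0.22 to 0.025 with a library left out. The cause was not tested. The upstream Tcf7 peak stayed between -0.52 and -0.33, the Satb1 peak beyond the gene between 0.75 and 1.02 and the strongest Tox peak between 0.22 and 0.44 in all alternatives that gave a value. Depth limits the weak sites, where intervals were wide, as from -0.27 to 1.98 at the Tcf7 start.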

Other observations

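Across the 7 libraries the summed accessibility of Tcf7 and Satb1 ran in largely opposite order. Pearson's r of their log2 CPM was -0.96 and Spearman's rho -0.89. With WT replicates 2 and 3 averaged, r was -0.96 over 6 samples, and without the 2 libraries farthest from the median of Tcf7 it was -0.83. Within WT, replicate 2 was lowest at Tcf7 (198 CPM) and highest at Satb1 (414 CPM), and replicate 4 was highest at Tcf7 (246 CPM) and lowest at Satb1 (341 CPM). In KO, replicate 2 was lowest at Tcf7 (179 CPM) and highest at Satb1 (440 CPM). The other KO libraries did not follow the opposite order. KO replicate 3 was above KO replicate 1 at both Tcf7 (212 against 208 CPM) and Satb1 (388 against 375 CPM). Of 6658 genes, 3 had an r with Tcf7 at or below that of Satb1. This was the most extreme of the 15 pairs of the 6 genes and was noticed after the values were seen, so it is a description; the next was Id3 with Tox (-0.78), which was -0.19 without the 2 farthest libraries. For Tcf7 and Lef1 r was -0.12. The libraries share depth and preparation, whose part was not tested.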
